A study of Mus musculus with 6 samples.

Results

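Goblet cells of mouse intestinal epithelial monolayers were compared after 25 h of tunicamycin and in the vehicle, DMSO. Tunicamycin is an antibiotic that blocks the first step of N-glycan assembly in the endoplasmic reticulum (ER) and so leaves secretory proteins misfolded. The cells were those whose deposited name ends in Goblet and whose mitochondrial transcripts made up at most 25% of their unique molecular identifiers (UMIs, counted transcript molecules). They numbered 550 of the 5026 cells of all classes kept by that limit, and 552 of 5122 cells before it. The comparison used 398 of them, 98 and 86 cells from the 2 libraries of 25 h tunicamycin and 105 and 109 cells from the 2 DMSO libraries. A further 77 and 75 goblet cells came from 2 libraries of 13 h tunicamycin.

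The monolayers were grown from organoids of 1 mouse background, B6 animals carrying Rosa26-floxed STOP-Cas9 crossed to cmv-cre, and all 3 groups shared it. Tunicamycin was given at 0.5 µg/ml, and all cells were harvested on day 4 of differentiation. The 13 h wells stood in DMSO before they received the drug. The labels describe the source as small intestine in one place and as colonic spheroids in another, and this was not settled here. The design text calls the libraries of a group biological replicates without saying whether they came from separate cultures, so the p-values below measure only the spread between these libraries.

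The goblet cells held 1425291 and 1290741 UMIs in the 25 h libraries and 1296273 and 1363224 UMIs in the DMSO libraries. The libraries shared 12 cell barcodes in all, none of them between 2 kept goblet cells. Goblet markers were detected in both groups. At least 3 of Muc2, Clca1, Agr2 and Atoh1 were detected in 91.3% ± 0.74 of the goblet cells at 25 h and in 80.9% ± 1.5 in DMSO (mean ± SD of 2 libraries each). With cells sampled down to an equal UMI count, these shares were 84.6% ± 6.2 at 25 h and 77% ± 3.4 in DMSO. Muc2 was detected in 91.8% and 90.7% of goblet cells of the 25 h libraries and in 89.5% and 88.1% of those of the DMSO libraries. In enterocytes, the absorptive class, which should lack it, Muc2 was detected in 5.16% and 6.71% of cells at 25 h and in 6.12% and 5.01% in DMSO. Other goblet genes were less even there. Agr2 was detected in 19.5% and 17.9% of enterocytes at 25 h and in 7.9% and 8.0% in DMSO. Zg16 was detected in 25.1% and 20.4% at 25 h and in 71.9% and 73.4% in DMSO. Clca1 was detected in 6.6% to 9.0% and Atoh1 in 2.2% to 4.0% over both groups. Tff3 (77.7% to 94.8%) and Fcgbp (98.0% to 99.5%) were detected in most enterocytes. Goblet cells made up 18.2% (95% exact Clopper-Pearson interval 15.1 to 21.8) and 15.8% (12.8 to 19.1) of the 537 and 545 kept cells of the 25 h libraries. They made up 8.91% (7.35 to 10.7) and 9.36% (7.75 to 11.2) of the 1178 and 1165 kept cells of the DMSO libraries. These intervals cover counting error only. How the class was assigned is not stated, and several goblet marker genes differed between the groups. No change in the size of the class is therefore read from these shares.

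Goblet cells make and store mucins, very large glycoproteins that are folded in the ER, carry dense O-linked sugars added in the Golgi, and are released as mucus together with trefoil factors and lectins. Misfolded protein in the ER activates the unfolded protein response (UPR) through the sensors IRE1, PERK and ATF6. IRE1 splices Xbp1 mRNA and ATF6 is cut to a transcription factor, and both raise ER chaperones. PERK slows translation and favours the factor ATF4, which raises amino acid supply and the stress factor Ddit3 (CHOP).

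Per cell, the makeup of the goblet transcriptome differed between the groups. Mucus protein genes supplied 9.17% ± 0.87 of a cell's UMIs at 25 h and 21.7% ± 0.50 in DMSO (mean ± SD of the medians of 2 libraries each, as for the other shares here). Ribosomal protein genes supplied 15.9% ± 0.78 at 25 h and 4.22% ± 0.018 in DMSO. ER chaperone genes supplied 1.56% ± 0.0063 at 25 h and 0.528% ± 0.030 in DMSO. The mucus and ribosomal shares thus lay in opposite order in the groups, and neither overlapped between libraries. Cholesterol synthesis genes supplied 0.228% ± 0.033 at 25 h and 0.628% ± 0.013 in DMSO. Interferon response genes supplied 0.0483% ± 0.0044 at 25 h and 0.137% ± 0.011 in DMSO. Median depth was 13019 and 13438 UMIs per goblet cell at 25 h and 11664 and 11573 in DMSO. After each cell was thinned to 5000 UMIs, which left out 6 cells at 25 h and 15 in DMSO, the mucus share was 9.0% ± 0.79 at 25 h and 21.9% ± 0.72 in DMSO. The ribosomal share was then 16.3% ± 1.1 at 25 h and 4.48% ± 0.028 in DMSO. With 2 libraries against 2, an exact two-sided permutation test cannot give a p below 0.3333, so the shares were not tested.

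**Figure D1:**
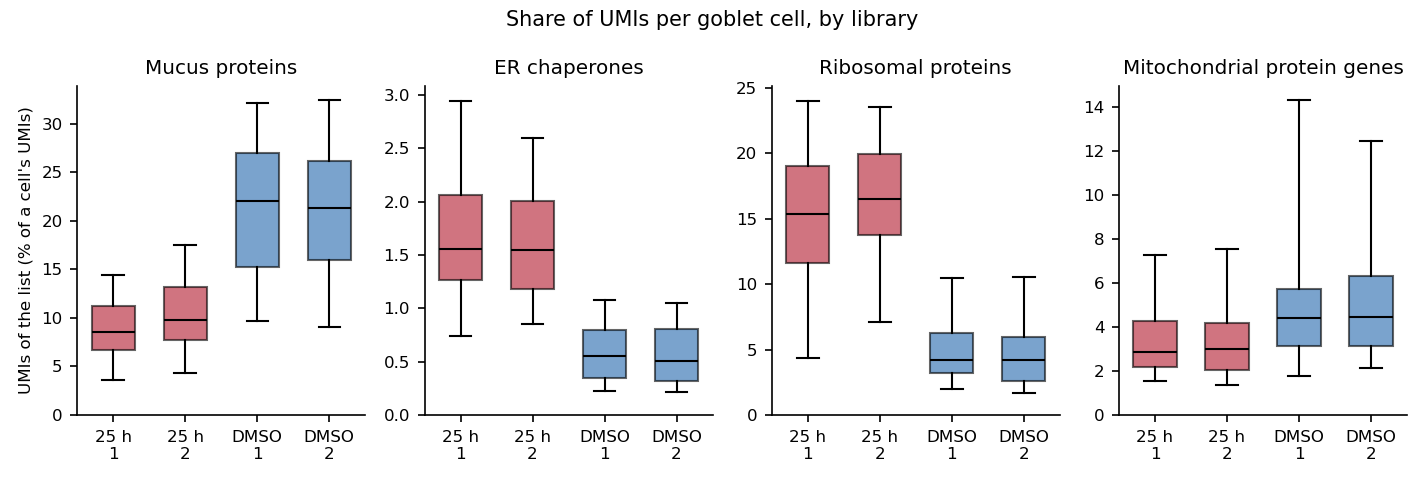
Share of each goblet cell's UMIs (y axes, percent) from mucus, ER chaperone, ribosomal and mitochondrial protein genes in the 2 libraries of 25 h tunicamycin (red) and the 2 DMSO libraries (blue), with lines at the median, boxes at the quartiles and whiskers from the 5th to the 95th percentile of cells. The mucus medians averaged 9.17% at 25 h and 21.7% in DMSO, and the ribosomal medians 15.9% at 25 h and 4.22% in DMSO.

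UMIs were summed over the goblet cells of a library and compared with edgeR's quasi-likelihood test, with p-values adjusted by Benjamini and Hochberg over 7839 genes and a call at an adjusted p below 0.05. Of these genes, 1235 were higher at 25 h (15.8%) and 1256 were lower (16%), together 31.8%. A change of at least 2-fold was called for 603 genes higher at 25 h (7.69%) and 509 lower (6.49%). The median log2 fold change of all genes was -0.0035. The values of the 25 h libraries did not overlap those of DMSO for 65.3% of the tested genes. Levels below are CPM, goblet UMI counts scaled to a common library total, and log2 fold changes are 25 h over DMSO. Each is given with an approximate standard error. This is its absolute value divided by the square root of the test's F statistic, not an error estimated by the fit. CPM are relative, so a fall in an abundant group raises the share of the rest. Scaling by total counts moved the median gene to 0.13 and gave 1639 genes higher and 931 lower, so that 63.8% of calls were higher, against 49.6% with the main scaling.

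Genes listed here as mucus proteins were lower at 25 h as a group. The list also holds genes of other kinds, among them the chemokines Ccl6 and Ccl9, Smim6 and Tinag. Of 19 tested, 13 fell and 1 was higher, beside 16% and 15.8% of all genes, and 5 did not pass the test. The median log2 fold change was -1.03 beside -0.0035 over all genes. Trefoil factor Tff3, a small peptide of the mucus that aids repair of the epithelium, had 44985 and 56194 CPM at 25 h and 109570 and 96812 CPM in DMSO. Zg16, a lectin that binds Gram-positive bacteria, had 8079 and 12902 CPM at 25 h and 65100 and 64140 CPM in DMSO. Fcgbp, a protein cross-linked into the mucus gel, had 13387 and 15313 CPM at 25 h and 29954 and 27928 CPM in DMSO. For each of these 3 genes both 25 h libraries lay below both DMSO libraries. Groups did not overlap for 65.3% of all tested genes. The log2 fold change was -2.62 ± 0.15 for Zg16 (adjusted p = 7.3e-11), -1.03 ± 0.11 for Tff3 (3e-07) and -1.01 ± 0.10 for Fcgbp (8.9e-08).

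Muc2, the gel-forming mucin, fell too. It had 801 and 926 CPM at 25 h and 1626 and 1371 CPM in DMSO, with no overlap (log2 fold change -0.80 ± 0.11, adjusted p = 2.1e-05). Clca1, a protease secreted with the mucus, had 2434 and 2935 CPM at 25 h and 3814 and 2345 CPM in DMSO. Its groups overlapped and it did not pass the test (-0.20 ± 0.16, adjusted p = 0.39). Without the first DMSO library its log2 fold change was 0.19 and not called, and without the second it was -0.51 and called. The transmembrane mucin Muc13 fell with a log2 fold change of -1.27 ± 0.09 and Muc3 with one of -0.77 ± 0.13. Lypd8, a surface protein that keeps flagellated bacteria from the epithelium, had 5050 and 4280 CPM at 25 h and 10504 and 12043 CPM in DMSO (-1.27 ± 0.11). The chemokine Ccl6 (-2.58 ± 0.14), the secreted phospholipase Pla2g10 (-1.73 ± 0.16), the chloride channel regulator family member Clca4a (-1.82 ± 0.25), Spink4 (-1.57 ± 0.28), Lgals3bp (-1.33 ± 0.19) and Smim6 (-0.42 ± 0.13) fell as well. Spink4 had a log2 fold change of -1.03 without the first DMSO library. Smim6 lost its call with total-count scaling, with DESeq2 and when the first DMSO library or either 25 h library was left out.

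Tff2, a trefoil factor best known from the stomach, was the member higher at 25 h. It had 7 and 52 UMIs in the 25 h libraries and none in either DMSO library, at least 17.6-fold higher against a floor of 3 UMIs over the DMSO group (adjusted p = 0.0012). Of the 52 UMIs of the second 25 h library, 26 lay in 1 cell, and 5 cells held 86.5%. The bound was 3.89-fold without that library and 33.4-fold without the first, and the 7 UMIs of the first lay in 5 of 98 cells. Of the other 4 members that did not pass, the groups overlapped for Itln1 only. The antimicrobial ribonuclease Ang4 had 149 and 117 CPM at 25 h and 115 and 42.5 CPM in DMSO (0.77 ± 0.33, adjusted p = 0.083). The lectin Itln1 had 2.71 and 3.91 CPM at 25 h and 29.4 and 2.36 CPM in DMSO, so that 1 DMSO library carried its difference. The chemokine Ccl9 (-0.95 ± 0.45) and Tinag (-0.39 ± 0.26) did not pass either.

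**Figure D2:**
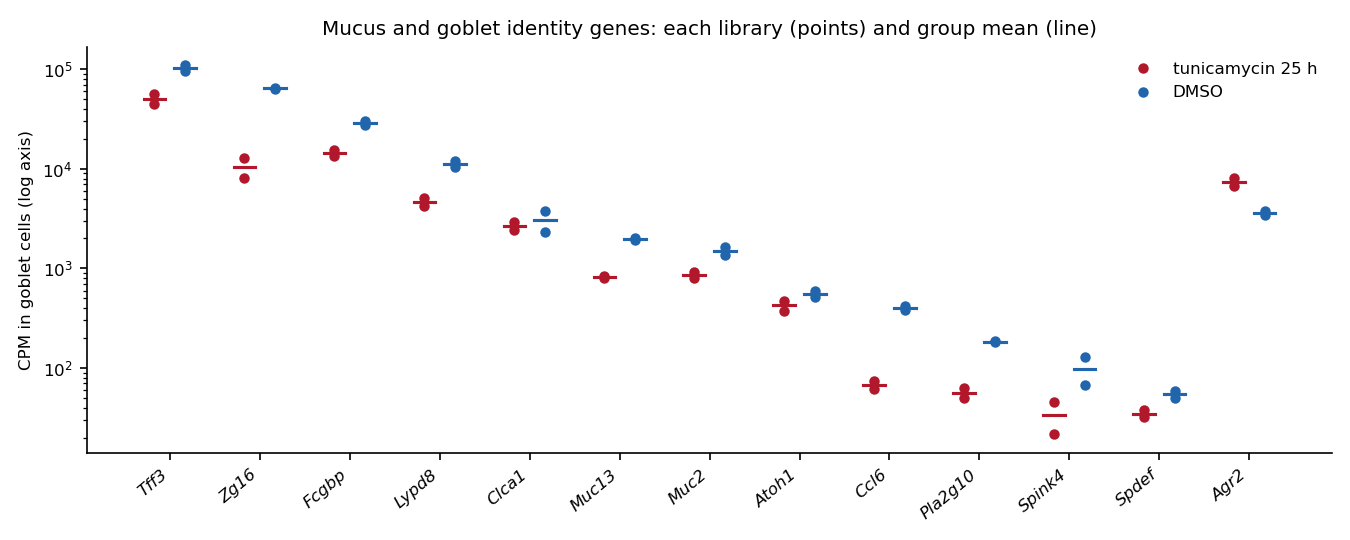
Levels of 13 mucus, folding and transcription factor genes (x axis) in goblet cells, in CPM on a log scale (y axis), with a point for each library of 25 h tunicamycin (red) and DMSO (blue) and a line at the group mean. Zg16 lay at 8079 and 12902 CPM at 25 h and at 65099.9 and 64140.0 CPM in DMSO, while Agr2 lay higher at 25 h.

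The genes that fold mucins and build or release the granule included calls in both directions. Of 18 tested, 2 rose and 7 fell, beside 15.8% and 16% of all genes, and the median log2 fold change was -0.30. Agr2, an ER disulfide isomerase needed to fold Muc2, had 6693 and 8144 CPM at 25 h and 3758 and 3472 CPM in DMSO. Both 25 h libraries lay above both DMSO libraries, and Agr2 rose with a log2 fold change of 1.04 ± 0.10 (adjusted p = 1.6e-07), opposite to Muc2. Pdia5, another disulfide isomerase, had 39.9 and 32.8 CPM at 25 h and 16.8 and 18.1 CPM in DMSO (1.06 ± 0.24). Several genes of granule release were among the lower calls. Syt7, a calcium sensor of exocytosis, had 99.4 and 82.9 CPM at 25 h and 237 and 227 CPM in DMSO (-1.34 ± 0.13, adjusted p = 1.3e-07). Capn9, a calpain protease of gut epithelium, had 11.5 and 15.6 CPM at 25 h and 64.7 and 68.4 CPM in DMSO (-2.30 ± 0.30). The Rab27 effectors Sytl1 (-1.12 ± 0.33) and Sytl2 (-0.37 ± 0.14), Rab27a itself (-0.65 ± 0.24) and Galnt12 (-0.98 ± 0.24) fell too. The 7 lower calls became 3 with DESeq2 and 3 to 5 when one 25 h or DMSO library was left out. Rab27a, Sytl1, Sytl2 and Pdia5 lost their call with DESeq2, and Galnt12 without the second DMSO library. Vamp8, Vamp2 and Rab3d of vesicle release did not pass the test. The granule SNARE Vamp8 had 553 and 589 CPM at 25 h and 582 and 582 CPM in DMSO (-0.03 ± 0.10). Ern2, the IRE1 form of mucus-making cells, had 23.7 and 26.6 CPM at 25 h and 29.4 and 24.4 CPM in DMSO (-0.10 ± 0.24), and its groups overlapped.

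Of 33 tested genes of mucin O-glycosylation, 14 fell and 6 rose, beside 16% and 15.8% of all genes. Another 13 did not pass the test, and the median log2 fold change was -0.35. DESeq2 called 8 lower and 1 higher. Galnt6, Galnt7, Galnt10, Gcnt3, B4galt1, Nans, Cmas, Slc35a1, Slc35c1, Papss1 and Papss2 lost their call with DESeq2, and Slc26a2 without the second DMSO library or the first 25 h library. Of the enzymes that start the O-glycan, Galnt1 had 25.0 and 28.1 CPM at 25 h and 52.9 and 54.3 CPM in DMSO (-1.01 ± 0.20), Galnt4 fell by 0.89 ± 0.19 on the log2 scale, and Galnt7 and Galnt10 were lower as well. Galnt6 rose, at 138 and 167 CPM at 25 h and 107 and 104 CPM in DMSO (0.53 ± 0.14). Of the branching enzymes, Gcnt1 had a log2 fold change of -0.53 ± 0.12 and Gcnt3 of -0.36 ± 0.11. Of the capping enzymes, St3gal4, a sialyltransferase, had 360 and 264 CPM at 25 h and 680 and 695 CPM in DMSO (-1.14 ± 0.12, adjusted p = 5.4e-07). Gal3st2, a galactose sulfotransferase, had 6.09 and 7.04 CPM at 25 h and 44.5 and 40.9 CPM in DMSO (-2.69 ± 0.33). The galactose sulfotransferase Gal3st1 did not pass the test (-0.10 ± 0.24, adjusted p = 0.80). Chst4, a sulfotransferase for N-acetylglucosamine, rose, with 116 and 117 CPM at 25 h and 62.2 and 29.1 CPM in DMSO (1.37 ± 0.21, adjusted p = 5.1e-05, and 0.90 without the second DMSO library). B4galnt2, which makes the Sda cap, fell (-1.12 ± 0.18), as did the galactosyltransferase B4galt1 (-0.73 ± 0.20). Genes that supply sugar and sulfate donors were called in both directions. The sialic acid enzymes Nans (0.48 ± 0.14) and Cmas (0.33 ± 0.12), the CMP-sialic acid transporter Slc35a1 (1.28 ± 0.32) and the GDP-fucose transporter Slc35c1 (0.60 ± 0.19) rose. The sulfate transporter Slc26a2 (-0.53 ± 0.13) and the sulfate donor enzymes Papss1 (-0.51 ± 0.15) and Papss2 (-0.72 ± 0.24) fell. The core 1 synthase C1galt1 (0.17 ± 0.17) and its chaperone C1galt1c1 (-0.35 ± 0.15) did not pass the test.

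Of 20 tested transcription factors of the goblet lineage, 8 fell and 1 rose, beside 16% and 15.8% of all genes. Their median log2 fold change was -0.37. Atoh1, which commits cells to the secretory lineage, had 378 and 475 CPM at 25 h and 594 and 520 CPM in DMSO (-0.39 ± 0.12, adjusted p = 0.016). Its groups did not overlap, but the call was lost with total-count scaling (adjusted p = 0.092) and with DESeq2 (0.065), and when the first DMSO library (0.19) or the first 25 h library (0.19) was left out, with a log2 fold change of -0.23 without that 25 h library. Spdef, which drives goblet maturation, had 31.8 and 37.5 CPM at 25 h and 50.4 and 59.0 CPM in DMSO (-0.67 ± 0.20). Hes6 (-0.98 ± 0.14), Elf3 (-0.79 ± 0.10), the Wnt effector Tcf7l2 (-0.59 ± 0.11), the glucocorticoid receptor Nr3c1 (-0.71 ± 0.16), Foxa3 (-0.51 ± 0.17) and Klf4, a factor of goblet differentiation (-0.35 ± 0.10), fell. Total-count scaling gave 4 lower calls, DESeq2 4, and the fit without the first 25 h library 5. Spdef, Foxa3 and Nr3c1 lost their call with DESeq2 and Klf4 with total-count scaling. Cdx2, the factor of intestinal identity, had 315 and 324 CPM at 25 h and 337 and 300 CPM in DMSO, and these overlapped.

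Xbp1 was the factor that rose. It had 282 and 273 CPM at 25 h and 195 and 146 CPM in DMSO (0.70 ± 0.13, adjusted p = 0.00031). Counts of 3′ tags do not separate its spliced from its unspliced form. The 15 tested UPR sensors and factors had a median log2 fold change of 0.40. Of them 5 rose and none fell, beside 15.8% and 16% of all genes. The other 4 were Nfe2l1, a regulator of proteasome genes (1.13 ± 0.17), Atf6b (0.60 ± 0.19), the protease Mbtps1 that cuts ATF6 (1.41 ± 0.42) and Creb3l2. DESeq2 called 2, and 2 to 4 were called when one 25 h or DMSO library was left out. Atf6b and Mbtps1 lost their call with DESeq2 and without the first DMSO or the first 25 h library. Mbtps1 had a log2 fold change of 0.77 without that 25 h library. Atf6 had 50.1 and 56.3 CPM at 25 h and 40.3 and 40.1 CPM in DMSO and did not pass the test (0.40 ± 0.18, adjusted p = 0.10). Dpagt1, the enzyme that tunicamycin blocks, had 48.0 and 63.3 CPM at 25 h and 48.7 and 40.9 CPM in DMSO, and did not pass (0.31 ± 0.19). Qrich1, a factor acting under PERK, had 37.9 and 36.7 CPM at 25 h and 37.0 and 45.6 CPM in DMSO (-0.15 ± 0.20), with overlapping groups.

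ER chaperones and folding enzymes rose as a group. Of 30 tested, 23 rose and none fell, beside 15.8% and 16% of all genes. Their median log2 fold change was 1.00. Hspa5 (BiP), the main HSP70 of the ER, had 3022 and 2945 CPM at 25 h and 549 and 539 CPM in DMSO (2.46 ± 0.10, adjusted p = 1.1e-12). Sdf2l1, a partner of BiP, had 668 and 664 CPM at 25 h and 94.1 and 83.4 CPM in DMSO (2.91 ± 0.12). Manf, a secreted ER stress protein, had 1540 and 1719 CPM at 25 h and 489 and 426 CPM in DMSO (1.83 ± 0.11). In these 3 genes the libraries of a group lay close together and the groups far apart. Creld2 (2.81 ± 0.17), Pdia6 (1.66 ± 0.11), Hsp90b1 (GRP94, 1.61 ± 0.10), Calr (calreticulin, 1.61 ± 0.10) and Dnajb11, a BiP co-chaperone (1.15 ± 0.13), rose too. The smallest called rise on this list was 0.40.

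Promoters of 6 of these genes are shown because each holds an ER stress response element, the sequence through which ATF6 and XBP1 are known to act with NF-Y. Each run is 300 bases on the gene's strand, from 250 bases before to 50 after the start, from RefSeq on GRCm38.p6, and capitals mark the motif match.
Hspa5, chr2:34771840-34772139 (+): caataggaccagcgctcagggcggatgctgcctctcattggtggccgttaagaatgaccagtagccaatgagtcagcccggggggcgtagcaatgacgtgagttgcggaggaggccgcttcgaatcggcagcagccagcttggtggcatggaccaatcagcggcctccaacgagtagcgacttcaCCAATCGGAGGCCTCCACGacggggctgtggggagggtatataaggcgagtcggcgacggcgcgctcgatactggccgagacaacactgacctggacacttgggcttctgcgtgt
Hsp90b1, chr10:86705395-86705694 (-): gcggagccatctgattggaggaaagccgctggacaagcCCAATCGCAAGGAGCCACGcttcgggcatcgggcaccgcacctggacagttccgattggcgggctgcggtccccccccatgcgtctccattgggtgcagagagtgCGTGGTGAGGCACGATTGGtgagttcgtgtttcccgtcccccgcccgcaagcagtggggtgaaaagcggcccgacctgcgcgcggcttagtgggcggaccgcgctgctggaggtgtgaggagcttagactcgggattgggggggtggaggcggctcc
Creld2, chr15:88819396-88819695 (+): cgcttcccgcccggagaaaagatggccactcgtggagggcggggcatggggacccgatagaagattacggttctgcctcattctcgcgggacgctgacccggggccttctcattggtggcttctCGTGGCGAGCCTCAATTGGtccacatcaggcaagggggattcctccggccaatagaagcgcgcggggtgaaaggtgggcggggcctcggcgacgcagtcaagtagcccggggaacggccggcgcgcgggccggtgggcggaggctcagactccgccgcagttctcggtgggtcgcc
Calr, chr8:84846882-84847181 (-): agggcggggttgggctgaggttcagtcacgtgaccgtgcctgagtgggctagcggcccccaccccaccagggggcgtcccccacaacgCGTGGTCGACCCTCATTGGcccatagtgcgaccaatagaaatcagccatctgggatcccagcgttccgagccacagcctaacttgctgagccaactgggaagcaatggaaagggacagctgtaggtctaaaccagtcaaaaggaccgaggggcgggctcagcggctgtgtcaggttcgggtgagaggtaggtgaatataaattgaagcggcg
Pdia6, chr12:17266339-17266638 (+): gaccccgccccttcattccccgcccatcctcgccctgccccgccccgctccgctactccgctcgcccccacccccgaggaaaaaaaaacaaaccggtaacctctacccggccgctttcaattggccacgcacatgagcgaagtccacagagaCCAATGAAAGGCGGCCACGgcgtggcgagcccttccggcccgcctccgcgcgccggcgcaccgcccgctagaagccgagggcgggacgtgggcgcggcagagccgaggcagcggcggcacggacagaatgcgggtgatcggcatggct
Dnajb11, chr16:22857595-22857894 (+): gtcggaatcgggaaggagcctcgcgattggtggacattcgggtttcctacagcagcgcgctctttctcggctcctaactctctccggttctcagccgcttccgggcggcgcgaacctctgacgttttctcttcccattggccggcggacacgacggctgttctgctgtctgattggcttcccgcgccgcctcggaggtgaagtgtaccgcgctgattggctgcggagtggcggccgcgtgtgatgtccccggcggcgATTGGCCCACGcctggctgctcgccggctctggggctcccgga

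The motif was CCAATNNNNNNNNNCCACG, or for Dnajb11 a variant with ATTGG, any single base and CCACG, each searched on both strands. No printed match of the 2 forms overlapped. The match was centred 56 bases before the start in Hspa5, 89 before it in Pdia6, 117 in Creld2 and 153 in Calr, and Hsp90b1 held 2 matches, at 203 and 98 bases before it. In Dnajb11 the match lay 12 bases after the start. The first form was in 7 of 24 chaperone genes with a RefSeq promoter in the table (29.2%), and in 37 of 27025 genes of that table (0.137%) or 13 of 6225 genes tested here (0.209%). Dnajc3 and Canx were the other 2 chaperone genes holding it. The variant was in 1 of 24 chaperone genes (4.17%) and in 12 of 27025 genes (0.0444%). The C/EBP-ATF composite TTGCATCA, searched the same way, was in none of the 24 chaperone genes, in 4 of 20 PERK-ATF4 target genes (20%) and in 3 of 16 amino acid supply genes (18.8%), beside 279 of 27025 genes (1.03%). A match describes the sequence and is not a measured binding site.

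Other steps of ER quality control and transport had members that rose. Of 26 tested genes of ER-associated degradation, which returns misfolded protein to the proteasome, 12 rose, 1 fell and 13 did not pass. This stood beside 15.8% higher and 16% lower of all genes, and the median log2 fold change of the list was 0.36. Derl3, a channel component, had 37 and 31 UMIs in the 25 h libraries and none in either DMSO library, at least 20.2-fold higher (adjusted p = 4.9e-07). Sel1l, a subunit of the HRD1 ligase, had 183 and 219 CPM at 25 h and 57.1 and 59.0 CPM in DMSO (1.79 ± 0.15). Herpud1 had 369 and 417 CPM at 25 h and 145 and 187 CPM in DMSO (1.24 ± 0.13). The lower member was Fam8a1 (-0.73).

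Of 30 tested N-glycosylation genes, the pathway that tunicamycin stops, 15 rose and 1, Slc35a3, fell, beside 15.8% and 16% of all genes. The median log2 fold change of the 30 was 0.46. With DESeq2, and without the second DMSO library, 9 rose. Gfpt1, the entry enzyme of the hexosamine pathway that feeds it, had 162 and 198 CPM at 25 h and 88.2 and 92.0 CPM in DMSO (0.99 ± 0.15), and Gnpnat1 of the same pathway had a log2 fold change of 0.71 ± 0.12. The oligosaccharyltransferase subunits Stt3b (0.75 ± 0.13) and Rpn1 (0.73 ± 0.12) rose. Of 51 tested genes of translocation and vesicle transport, 25 rose and 2, Sar1b and Copb2, fell, beside the same shares of all genes. The median log2 fold change of the 51 was 0.38. The cargo receptors Lman1 (1.11 ± 0.17), Tmed3 (1.11 ± 0.12) and Tmed9 (1.02 ± 0.13) and the translocon subunit Ssr4 (0.85 ± 0.10) were among those that rose.

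**Figure D3:**
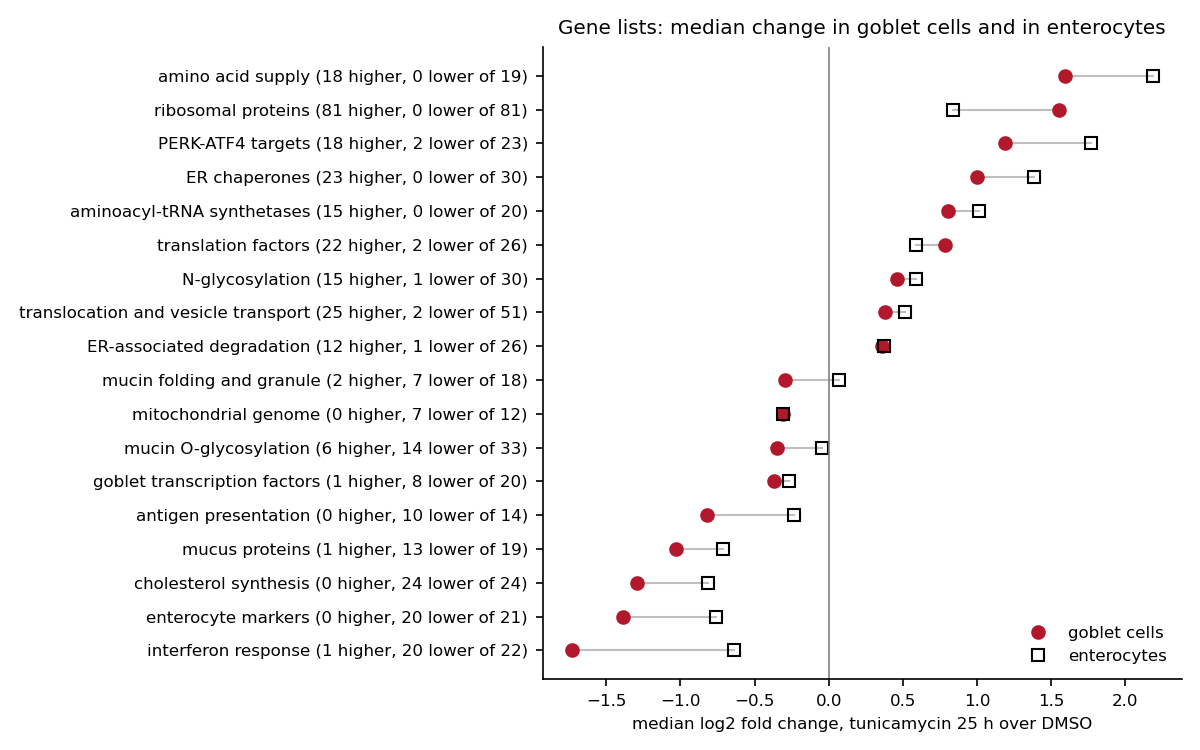
Median log2 fold change, 25 h tunicamycin over DMSO (x axis), of gene groups in goblet cells (filled circles) and in enterocytes (open squares), with the number of tested members higher and lower in goblet cells beside each name. Amino acid supply (1.60), ribosomal proteins (1.55) and PERK-ATF4 targets (1.19) lay highest of the plotted groups in goblet cells, and interferon response (-1.73), enterocyte markers (-1.39) and cholesterol synthesis (-1.29) lowest.

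Listed target genes of the PERK-ATF4 arm rose as a group in mRNA, and the activity of PERK and ATF4 was not measured. Of 23 tested targets, 18 rose and 2, Ppp1r15b and Eif2s2, fell, beside 15.8% and 16% of all genes. Their median log2 fold change was 1.19. Ddit3 had 572 and 540 CPM at 25 h and 39.5 and 57.4 CPM in DMSO (3.51 ± 0.16, adjusted p = 5.7e-12). Atf5, a related stress factor, had 261 and 281 CPM at 25 h and 16.8 and 21.2 CPM in DMSO (3.82 ± 0.17). Trib3, a pseudokinase induced by CHOP, had 208 and 206 CPM at 25 h and 8.40 and 16.5 CPM in DMSO (4.03 ± 0.20). These 3 genes stood more than 10-fold apart between the groups in the fit. Atf4 itself had 386 and 452 CPM at 25 h and 177 and 189 CPM in DMSO (1.19 ± 0.12). Nupr1, a small stress regulator of chromatin, rose with a log2 fold change of 2.07 ± 0.13, and Cebpb, which pairs with ATF4 family members, with one of 3.31 ± 0.21.

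Genes that supply amino acids rose too, 18 of 19 tested, beside 15.8% of all genes, with a median of 1.60. Phgdh, the first enzyme of serine synthesis, had 68.3 and 77.4 CPM at 25 h and 3.36 and 3.93 CPM in DMSO (4.28 ± 0.32). Psat1, the second, had 70.4 and 67.2 CPM at 25 h and 5.88 and 6.29 CPM in DMSO (3.48 ± 0.26). Mthfd2, of mitochondrial one-carbon metabolism, had a log2 fold change of 2.14 ± 0.17. Slc3a2, the shared heavy chain of amino acid exchangers, had 831 and 866 CPM at 25 h and 181 and 187 CPM in DMSO (2.21 ± 0.11). The 1 member that did not pass was Gpt2. Of 20 aminoacyl-tRNA synthetases 15 rose and none fell, beside 15.8% and 16% of all genes, with a median of 0.80. Among those that rose were Eprs (1.97 ± 0.18), Iars (1.86 ± 0.25) and Sars (1.24 ± 0.12).

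All 81 tested ribosomal protein genes rose, beside 15.8% of all genes, and their median log2 fold change was 1.55 with a range of 0.42 to 2.69. Rpl12 had 810 and 955 CPM at 25 h and 144 and 130 CPM in DMSO (2.69 ± 0.12). Rps19 had 2813 and 3376 CPM at 25 h and 653 and 679 CPM in DMSO (2.22 ± 0.11). Summed over the group, ribosomal proteins took 152407 and 175680 CPM at 25 h and 57639 and 55814 CPM in DMSO. Their many processed pseudogenes can share reads with them, and how the counting divided such reads was not tested. Of 26 translation factors 22 rose and 2, Eif2s2 and Eef2k, fell, beside 15.8% and 16% of all genes. The other 2, Eif4a2 and Eif4g1, did not pass, and the median of the 26 was 0.78. Eef1a1, the elongation factor that delivers tRNA, had 4806 and 5144 CPM at 25 h and 1395 and 1426 CPM in DMSO (1.82 ± 0.10). Eif4ebp1, an ATF4 target that restrains cap-dependent initiation, had 695 and 669 CPM at 25 h and 210 and 180 CPM in DMSO (1.81 ± 0.12). Zfas1, a long non-coding RNA that hosts small nucleolar RNAs, rose alongside (1.91 ± 0.16).

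Interferon response genes fell as a group. Of 22 tested genes 20 fell and 1 rose, beside 16% and 15.8% of all genes, with a median log2 fold change of -1.73. Ifit1, an antiviral RNA-binding protein, had 10.8 and 10.2 CPM at 25 h and 169 and 168 CPM in DMSO (-3.99 ± 0.20, adjusted p = 8.9e-12). Isg15, a ubiquitin-like modifier, had 23.7 and 14.1 CPM at 25 h and 169 and 160 CPM in DMSO (-3.09 ± 0.20). Irf7, the transcription factor of the pathway, had 62.2 and 62.5 CPM at 25 h and 296 and 282 CPM in DMSO (-2.21 ± 0.14). The groups did not overlap for any of these 3 genes, nor did they for 65.3% of all tested genes. The member that rose was Isg20, an exonuclease, with a log2 fold change of 2.34. Of 14 antigen presentation genes 10 fell and none rose, beside the same shares of all genes, with a median of -0.82. B2m, the light chain of MHC class I, had 346 and 322 CPM at 25 h and 1038 and 1080 CPM in DMSO (-1.66 ± 0.11). H2-T23 (-1.21 ± 0.17) and Tapbp, a peptide-loading factor (-0.91 ± 0.13), fell as well. Summed markers of immune cells were 1.35 and 1.56 CPM at 25 h and 6.72 and 3.93 CPM in DMSO, and their part in these falls was not tested.

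All 24 cholesterol synthesis genes tested fell, beside 16% of all genes, with a median log2 fold change of -1.29. Hmgcs1, which makes HMG-CoA, had 288 and 199 CPM at 25 h and 1086 and 961 CPM in DMSO (-2.06 ± 0.14, adjusted p = 5e-10). Idi1, of the isoprenoid step, had 56.2 and 57.1 CPM at 25 h and 271 and 219 CPM in DMSO (-2.11 ± 0.15). Insig1, the sterol-sensing brake on the pathway, fell in the same way (-1.94 ± 0.14).

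Enterocyte markers detected in goblet cells were lower at 25 h, 20 of 21 tested, beside 16% of all genes. Their median was -1.39. The other, Car1, did not pass the test. The brush-border genes Krt20 (-1.28 ± 0.11), Vil1 (-1.20 ± 0.11) and Ceacam1 (-1.39 ± 0.11) were among them, as was Fabp2, a fatty acid carrier, with 119 and 89.1 CPM at 25 h and 467 and 411 CPM in DMSO (-2.07 ± 0.16). The 30 listed markers summed to 3663 and 2900 CPM in goblet cells at 25 h and 7034 and 6835 CPM in DMSO. That was 39.9% and 31.5% of their sum in enterocytes of the same libraries at 25 h and 44.7% and 43.8% in DMSO. Fabp1, Lct, Slc26a3, Car4, Slc2a2 and Aqp8 were at 0 in goblet cells of all 6 libraries. Enteroendocrine markers summed to 43.3 and 58.6 CPM at 25 h and 296 and 315 CPM in DMSO, and most of this was Sct (secretin), at 41.9 and 58.6 CPM at 25 h and 287 and 296 CPM in DMSO (-2.54 ± 0.15). Paneth markers summed to 231 and 325 CPM at 25 h and 741 and 436 CPM in DMSO, with lysozyme, Lyz1, at 74.4 and 82.1 CPM at 25 h and 416 and 280 CPM in DMSO (-2.15 ± 0.19). Of the stem cell markers, the Wnt feedback genes Axin2 (-1.20 ± 0.28) and Rnf43 (-1.71 ± 0.24) fell and Prom1 (0.79 ± 0.15) rose, the Axin2 call being lost with DESeq2 and without the first DMSO library. The part of RNA from other cell classes in these values was not tested.

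Saa1, serum amyloid A of the acute phase response, had the lowest log2 fold change among called genes with a mean of at least 50 CPM. It had 17.6 and 32.1 CPM at 25 h and 498 and 561 CPM in DMSO (-4.43 ± 0.18, adjusted p = 1.4e-12). The metallothionein Mt1 had 60.2 and 114 CPM at 25 h and 152 and 193 CPM in DMSO (-1.01 ± 0.21), a change of -0.60 without the first 25 h library and -1.53 without the second. Its call was lost with DESeq2 and without the tenth of cells with the most UMIs. The zinc importer Slc39a4 (-1.36 ± 0.15) and the manganese exporter Slc30a10 (-1.26 ± 0.16) fell. Other large falls were Dio1, a deiodinase (-2.72 ± 0.21), Sectm1b (-2.78 ± 0.16), the carboxypeptidase Cpm (-2.59 ± 0.25), Adh6a (-2.45 ± 0.24), Apol7a (-2.38 ± 0.17) and Apoa1 (-3.00 ± 0.44).

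Among the largest rises outside the stress lists, Try5, a trypsinogen family member, had 438 and 448 UMIs in the 25 h libraries and none in either DMSO library. This was at least 264-fold higher (adjusted p = 8.7e-13). It was detected in 40 of 98 and 29 of 86 goblet cells at 25 h, and in 6 of 426 and 3 of 447 enterocytes of the same libraries, which were deeper per cell (16256 and 17862 UMIs). Trypsinogens have close paralogs that can share reads, so which member was counted is uncertain. Hsd17b13, a lipid droplet protein, had 51 and 37 UMIs at 25 h and none in DMSO, at least 26.2-fold higher. It was detected in 19 of 98 and 16 of 86 goblet cells at 25 h, and in 306 of 426 and 342 of 447 enterocytes of the same libraries. In DMSO it was detected in no goblet cell and in 112 of 1046 and 155 of 1037 enterocytes. The part of enterocyte RNA in its goblet UMIs was not tested. Chchd10, a small protein of the mitochondrial intermembrane space, had 1289 and 1455 CPM at 25 h and 233 and 284 CPM in DMSO (2.41 ± 0.12). Hspa9, the HSP70 of mitochondria, had 196 and 198 CPM at 25 h and 16.8 and 36.2 CPM in DMSO (2.87 ± 0.20). Ccnd2, a G1 cyclin, had 102 and 131 CPM at 25 h and 11.8 and 4.72 CPM in DMSO (3.82 ± 0.27). The EGF receptor ligand Areg had 250 and 228 CPM at 25 h and 34.5 and 22.8 CPM in DMSO (3.07 ± 0.17). Acox2, of peroxisomal oxidation (3.21 ± 0.24), and Gstp3, a glutathione transferase (2.91 ± 0.21), rose in both libraries.

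Of 27 tested apoptosis genes 3 rose, 5 fell and 19 did not pass, shares near the 15.8% and 16% of all genes. Their median of -0.04 turned to 0.10 with total-count scaling. DESeq2 called 1 higher and 2 lower, and 1 to 3 rose and 2 to 5 fell when one library was left out. Bax, a pore-forming effector, had 217 and 172 CPM at 25 h and 97.5 and 101 CPM in DMSO (0.98 ± 0.15). Casp4, an inflammatory caspase, had 25.0 and 17.2 CPM at 25 h and 5.04 and 10.2 CPM in DMSO (1.46 ± 0.37), with its call lost with DESeq2 and without the first DMSO or the first 25 h library. Casp8, the initiator of death receptor signalling, had 65.6 and 71.1 CPM at 25 h and 135 and 120 CPM in DMSO (-0.90 ± 0.14). Among 15 tested p53 targets Cdkn1a, Mdm2, Pmaip1, Sesn1, Zmat3 and Perp did not pass the test. The list held 8 that rose, among them Sesn2 of the PERK-ATF4 list, and 1, Btg2, that fell, beside 15.8% and 16% of all genes. DESeq2 called 2 higher, and 5 were higher without the first DMSO library. Gadd45a, a growth arrest gene, had 218 and 178 CPM at 25 h and 94.9 and 116 CPM in DMSO (0.90 ± 0.16).

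Mitochondrial transcripts were a smaller share of goblet cells at 25 h, with a median of 2.86% and 3.00% of a cell's UMIs at 25 h and 4.40% and 4.45% in DMSO. In enterocytes the medians were 7.41% and 7.40% at 25 h and 8.84% and 8.80% in DMSO. Of 12 tested genes of the mitochondrial genome 7 fell and none rose, beside 16% and 15.8% of all genes. The count of falls was 3 with total-count scaling and 4 with DESeq2 or a mitochondrial limit of 10%. The oxidase subunit mt-Co1 had 13502 and 13708 CPM at 25 h and 23681 and 24305 CPM in DMSO (-0.82 ± 0.09, adjusted p = 6.3e-07). Of 77 nuclear genes of oxidative phosphorylation 17 fell, 6 rose and 54 did not pass, beside 16% lower and 15.8% higher of all genes. Their median was -0.08. Total-count scaling gave 15 higher and a median of 0.06.

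The difference between the goblet response and that of the 4368 kept enterocytes of the same libraries was tested as an interaction. Among 10458 genes the goblet response was higher for 267 (2.55%) and lower for 471 (4.5%), together 7.06%, and the median difference was -0.05. Total-count scaling turned the split, with 405 higher and 282 lower (59.0% higher, against 36.2%), and moved the median to 0.07. The split also turned without the first 25 h library, with 247 higher and 203 lower, and without the tenth of cells with the most UMIs, with 368 and 348. Differences given here are goblet minus enterocyte log2 fold changes, with an approximate standard error derived in the same way. The difference was negative for 18 of 30 ER chaperone genes and positive for 1, and 11 did not pass. DESeq2 called 11 negative. Hspa5 averaged 2984 CPM at 25 h and 544 CPM in DMSO in goblet cells, and 3036 CPM at 25 h and 187 CPM in DMSO in enterocytes, a difference of -1.62 ± 0.10 (adjusted p = 9.5e-15). Pdia6 averaged 731 CPM at 25 h and 231 CPM in DMSO in goblet cells, and 488 CPM at 25 h and 27.0 CPM in DMSO in enterocytes (-2.56 ± 0.12). The goblet levels in DMSO thus lay above those of enterocytes for both genes. Hsp90b1 (-1.50 ± 0.10), Manf (-1.50 ± 0.11), Xbp1 (-1.19 ± 0.13), Nupr1 (-1.17 ± 0.13), Selenos of the degradation complex (-1.16 ± 0.12) and Atf4 (-0.62 ± 0.12) showed the same sign. Without the first 25 h library the Atf4 difference was -0.41 and not called. The difference for Ddit3 did not pass the test (0.14 ± 0.16). Wars, the tryptophan synthetase, had one of the largest negative differences (-1.69 ± 0.14).

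Ribosomal protein genes rose more in goblet cells. The difference was positive for 79 of 81 and negative for none, with a median of 0.70. Rpl12 averaged 882 CPM at 25 h and 137 CPM in DMSO in goblet cells, and 567 CPM at 25 h and 240 CPM in DMSO in enterocytes (1.41 ± 0.12). Of 26 interferon response genes, the difference was negative for 12 and positive for none, beside 4.5% and 2.55% of all genes, and 14 did not pass. The 12 were 2 with DESeq2, 8 with total-count scaling and 4 to 7 when one 25 h or DMSO library was left out. Of 24 cholesterol synthesis genes, 17 differences were negative and none positive, with 9 without the first DMSO library and 11 without either 25 h library. Ifit1 had a difference of -2.04 ± 0.24, Isg15 of -1.91 ± 0.23 and Hmgcs1 of -0.85 ± 0.13. Mt1 went the other way, with a log2 fold change of -1.01 in goblet cells and -2.91 in enterocytes (1.85 ± 0.16). Chchd10 (1.68 ± 0.11), Acox2 (1.70 ± 0.26), Ccnd2 (1.80 ± 0.36) and Phgdh (1.90 ± 0.44) rose more in goblet cells. The Ccnd2 difference was not called without the second DMSO library, nor the Phgdh difference without the first. Pepd, a dipeptidase, was higher at 25 h in goblet cells (0.66) and lower in enterocytes (-0.89), a difference of 1.51 ± 0.15.

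Of 21 genes on the mucus list, chemokines included, 7 had a negative difference and none a positive one, beside 4.5% and 2.55% of all genes. DESeq2 called 3, as did the fit without the first 25 h library. Ccl6 averaged 67.2 CPM at 25 h and 400 CPM in DMSO in goblet cells, and 19.5 CPM at 25 h and 20.4 CPM in DMSO in enterocytes (-2.55 ± 0.17, adjusted p = 1.2e-13). St3gal4 fell in goblet cells and averaged 887 CPM at 25 h and 899 CPM in DMSO in enterocytes (-1.17 ± 0.11). Muc2 (-1.12 ± 0.19), Agr2 (-0.98 ± 0.18) and Clca1 (-0.97 ± 0.15) differed as well, but their enterocyte levels were low. Muc2 averaged 11.5 CPM at 25 h and 9.56 CPM in DMSO in enterocytes, Agr2 30.1 and 7.53 CPM, and Clca1 19.8 and 11.7 CPM in the same order. How far such levels reflect goblet RNA in enterocyte barcodes was not tested. The Agr2 difference lost its call with DESeq2 (adjusted p = 0.25) and without the first 25 h library (0.47), where it was -0.24, against -1.53 without the second. The Clca1 difference also lost it in both, at -0.48 without the first 25 h library. Without the tenth of cells with the most UMIs, neither the Clca1 nor the Muc2 difference was called.

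**Figure D4:**
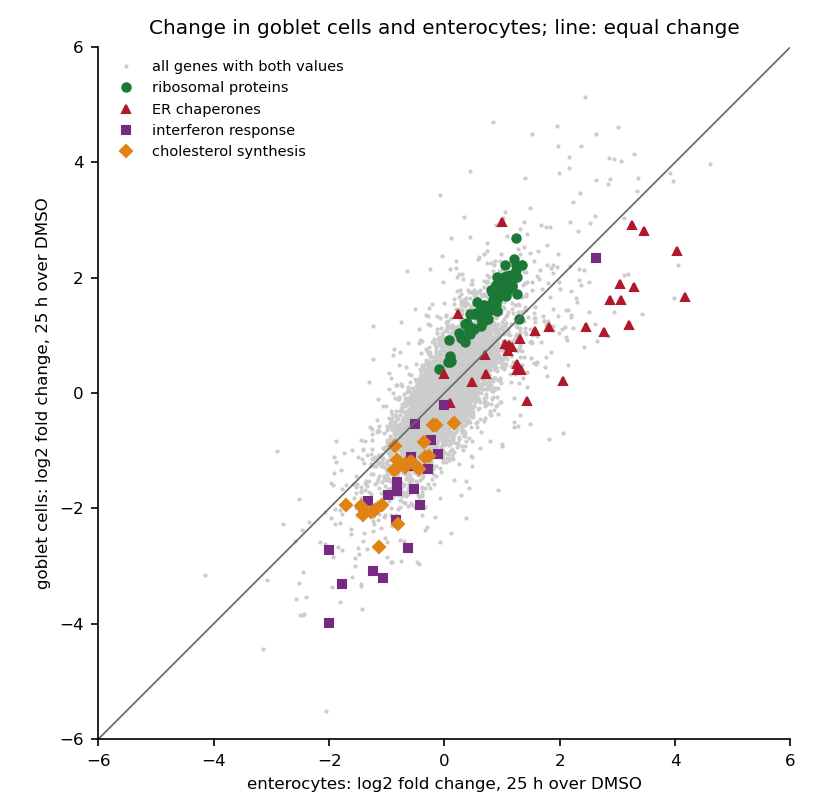
Log2 fold change, 25 h tunicamycin over DMSO, in goblet cells (y axis) and in enterocytes (x axis) for 7794 genes (grey), of which 5 lie outside the plotted range of 6 either way, with 4 gene groups coloured and a line of equal change. Rpl12 of the ribosomal proteins lies above the line (2.69 in goblet cells and 1.24 in enterocytes) and the chaperone Hspa5 below it (2.46 and 4.03), while chaperones lie on both sides.

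The 13 h libraries are given as levels only, with no test. Hspa5 averaged 544 ± 7.1 CPM in DMSO, 4545 ± 160 CPM at 13 h and 2984 ± 55 CPM at 25 h (mean ± SD, n = 2 each, as below). Ddit3 averaged 48.4 ± 13 CPM in DMSO, 859 ± 147 CPM at 13 h and 556 ± 23 CPM at 25 h. Both were thus highest at 13 h. Muc2 averaged 1498 ± 180 CPM in DMSO, 558 ± 77 CPM at 13 h and 863 ± 88 CPM at 25 h, lowest at 13 h. Zg16 averaged 64620 ± 679 CPM in DMSO, 28102 ± 3485 CPM at 13 h and 10490 ± 3410 CPM at 25 h. Agr2 averaged 3615 ± 202 CPM in DMSO, 5500 ± 304 CPM at 13 h and 7418 ± 1026 CPM at 25 h. At 13 h both Zg16 and Agr2 thus lay between DMSO and 25 h, in opposite directions. The ribosomal share of a cell's UMIs was 4.22% ± 0.018 in DMSO, 8.52% ± 0.45 at 13 h and 15.9% ± 0.78 at 25 h. Saa1 averaged 529 ± 44 CPM in DMSO, 161 ± 19 CPM at 13 h and 24.8 ± 10 CPM at 25 h. Ifit1 was already at 11.0 and 7.33 CPM in the 13 h libraries. Try5 had 33 and 32 UMIs at 13 h.

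**Figure D5:**
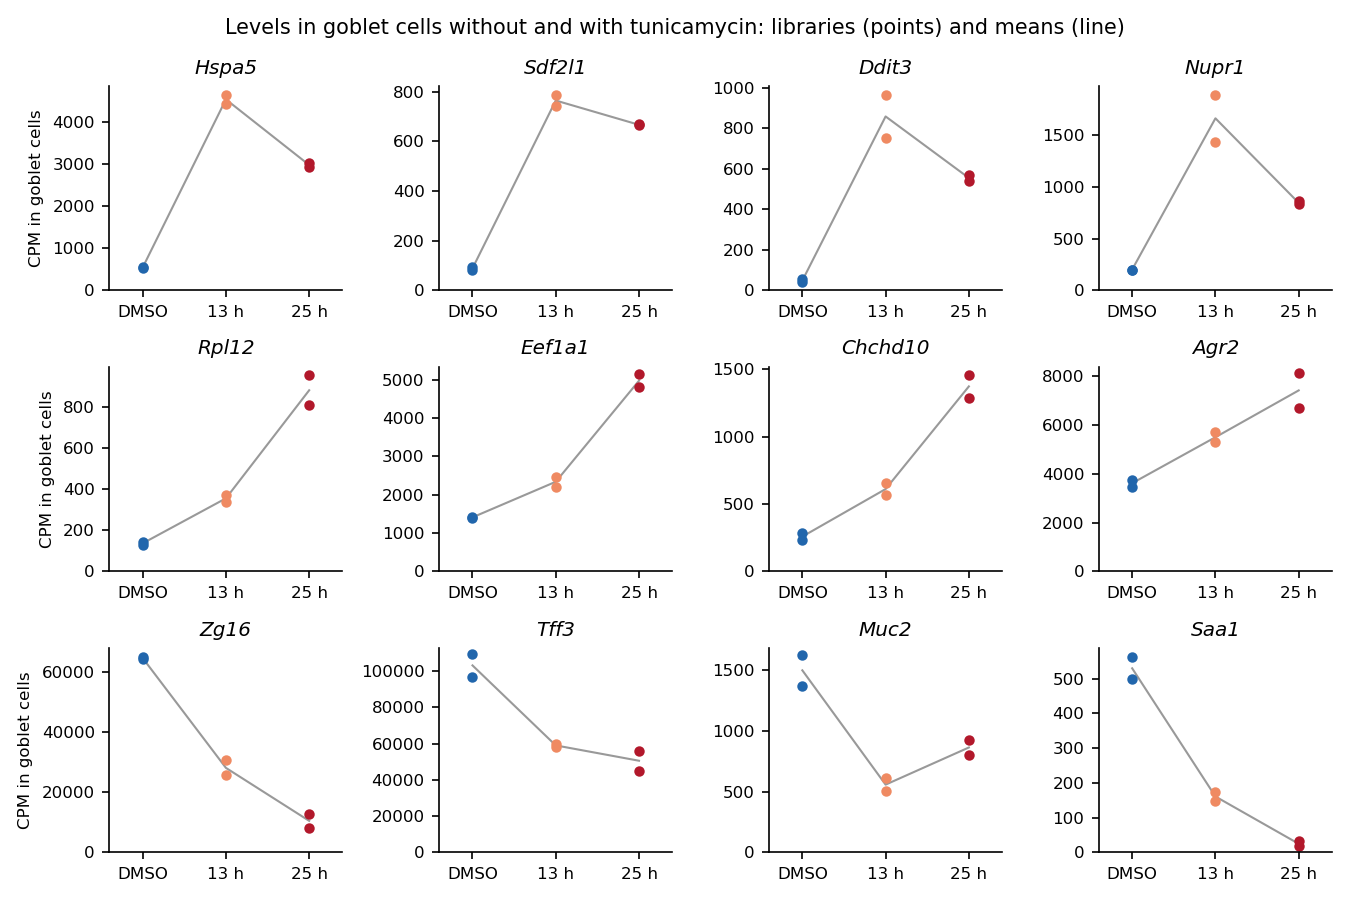
Goblet levels of 12 genes (y axes, CPM) in each library of DMSO, 13 h and 25 h tunicamycin (x axis), with a grey line through the group means. Hspa5 averaged 4545 CPM at 13 h, above both other groups. Zg16 was lower and Agr2 higher at 13 h than in DMSO, and again at 25 h than at 13 h.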

How the data were processed

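Single cells were captured with 10x 3′ chemistry, and the deposited values are UMI counts per gene and cell, not normalized, made with Cell Ranger on mm10 per the submitters' processing notes. Cell class and library were read from the deposited cell names. Symbols came from GENCODE M21 for 27645 of 27998 gene identifiers. The mitochondrial limit removed 96 cells, 2 of them goblet cells. Scrublet (scanpy 1.11.5) marked 33 cells (0.644%) as doublets, 10 of them kept goblet cells, and these were left out only as an alternative. UMIs were summed per library and class, and edgeR 4.0.16 fitted its quasi-likelihood test over all 6 libraries with TMM scaling, filterByExpr and Benjamini-Hochberg adjustment. The response difference was the interaction of class and group over 12 sums of goblet cells and enterocytes with library as a block. Scripts were tested on simulated counts.

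The members, gene lists and tests were chosen with earlier results of these data known. The text takes its genes from the tested members of the mucus, granule, transcription factor and O-glycosylation lists, up to 4 members with the lowest adjusted p in each other list, the 15 highest and 15 lowest called fold changes whose groups did not overlap, the 10 highest and 10 lowest called response differences (both kinds above a mean level of 50 CPM), and Hspa5, Ddit3, Atf4, Xbp1, Dpagt1, Qrich1, Muc2, Clca1, Agr2 and Atoh1. Exceptions within a list, such as Isg20, and genes named for their promoters were chosen after their values were seen. Lists are described by counts and medians, with no test of the list. A few genes that the rule takes are not reported here.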

Additional observations from a re-analysis of the deposited data

Results flagged for a closer look

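Genes are given here because the goblet and the enterocyte response to 25 h of tunicamycin differed in edgeR's interaction test (Benjamini-Hochberg adjusted). The goblet response was higher for 267 genes and lower for 471. Lower ones given above were Pdia6 (-2.56), Ccl6 (-2.55), Ifit1 (-2.04), Isg15 (-1.91), Wars (-1.69), Hspa5 (-1.62), Hsp90b1 (-1.50), Manf (-1.50), Xbp1 (-1.19), Nupr1 (-1.17), St3gal4 (-1.17), Selenos (-1.16), Muc2 (-1.12), Agr2 (-0.98), Clca1 (-0.97), Hmgcs1 (-0.85) and Atf4 (-0.62), as goblet minus enterocyte log2 fold changes. Higher ones were Phgdh (1.90), Mt1 (1.85), Ccnd2 (1.80), Acox2 (1.70), Chchd10 (1.68), Pepd (1.51) and Rpl12 (1.41). The 13 h libraries, which entered the fits only to estimate the spread, held 33 and 32 UMIs of Try5 in goblet cells, and the DMSO libraries held none. Groups of 2 libraries are too small for a check of single libraries standing apart.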

How the results depend on the processing

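Of 166 genes named for goblet cells, 114 kept their direction and their side of the threshold under every alternative that gave a value, and of 25 genes named for the response difference 19 did. With DESeq2 the calls in goblet cells were 571 higher and 650 lower, against 1235 and 1256, and leaving out one library gave 802 to 1255 higher and 879 to 1267 lower. For the response difference, total-count scaling gave 405 higher and 282 lower and DESeq2 160 and 166, against 267 and 471, and leaving out one library gave 156 to 250 higher and 203 to 456 lower. The cause was not tested. A fit without a library has fewer residual degrees of freedom. Genes that changed sign were not called in the main comparison. With total-count scaling Ern2 was at 0.035, Gal3st1 at 0.036 and Vamp8 at 0.10. Cdx2 was at -0.011 with no gene filter and -0.016 without doublets, and without the tenth of cells with the most UMIs Car1 was at 0.38 and Gal3st1 at 0.24. When one library was left out, Clca1 ranged from -0.51 to 0.19, Eif4g1 from -0.57 to 0.031, Vamp2 from -0.24 to 0.41, Itln1 from -3.13 to 0.45, Ern2 from -0.24 to 0.034, Vamp8 from -0.079 to 0.014, Cdx2 from -0.081 to 0.084, Qrich1 from -0.29 to 0.011 and Car1 from -2.08 to 0.065. Thinned to 5000 UMIs, the cell shares were 1.54% for chaperones and 0.04% for interferon genes at 25 h, and 4.48% for ribosomal and 0.60% for cholesterol genes in DMSO, and without the mitochondrial limit the DMSO mitochondrial share was 4.46%. A further 2 alternatives were chosen after seeing the data. Only goblet cells with at least 2 of the 4 markers gave 1133 higher and 1134 lower, and leaving mucus genes out of the sums gave 1281 and 1191. For the response difference these gave 273 and 455, and 359 and 369. Deviations of same-numbered libraries from their group means had correlations of -0.012, -0.016 and -0.019 over genes. Count noise can hide a shared deviation, so this does not settle whether the numbers pair the libraries. With the replicate number as a block, 1222 genes were higher and 1247 lower.

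The compared libraries held 1290741 to 1425291 goblet UMIs. A count of 0 in a group allows up to 3 UMIs over it, so levels of a few CPM have little precision.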
